A study of Homo sapiens with 8 samples.

Results

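The hnRNP genes described here are HNRNPA1, HNRNPA2B1, HNRNPC, HNRNPD, HNRNPDL, HNRNPH1, HNRNPK, HNRNPM, HNRNPR and HNRNPU, which were taken by symbol (HNRNPDL also under its older symbol HNRPDL). They are 10 of the 12067 genes with at least 1 splicing event in the deposited tables. They hold 300 of the 89379 events listed for whole cells and 133 of the 43559 events listed for the cytoplasm. The cells were U2OS, a single human osteosarcoma line. They received 20 nM of siRNA against EGFP, a gene that is absent from these cells and serves as the control, or 20 nM of siRNA number 2 against CHERP, and RNA was taken after 48 h from whole cells or from the cytoplasm. Each siRNA and fraction had 2 libraries, 8 in all, so all groups share the transfection, and the CHERP groups rest on a single siRNA. The methods describe the libraries of a group as biological replicates, while the tables give them no number that would pair them.

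Heterogeneous nuclear ribonucleoproteins (hnRNPs) are abundant nuclear proteins that bind RNA polymerase II transcripts as they are made, mostly through RNA recognition motifs or KH domains. Many of them repress or promote the use of nearby splice sites, and some also act in mRNA export, stability and translation. Several hnRNP genes carry alternative exons that introduce an early stop codon or lie beyond the normal stop codon. Transcripts with such exons can be degraded by nonsense-mediated decay (NMD), and hnRNPs are known for regulating their own level in this way.

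The authors' tables split the reads of each library between 2 forms of an event. A skipped exon (SE) is in or out, of mutually exclusive exons (MXE) one or the other is used, the 5′ or 3′ splice site of an exon can shift (A5SS and A3SS), and an intron can be retained (RI). Dividing the reads of a form by its effective length and taking the share of the inclusion form gives the inclusion level, from 0 to 1. Whole-cell libraries held from 29409956 to 35664568 reads over all events and cytoplasmic libraries from 5370756 to 6580099. Of these, the hnRNP genes held between 1.66% and 2.04% in whole cells and between 0.969% and 1.33% in the cytoplasm. A read on several events counts at each. CHERP itself had 103 and 77 reads in the whole-cell EGFP libraries and 3 and 10 in the CHERP libraries, and in the cytoplasm 31 and 21 against 3 and 4. By limma with Benjamini-Hochberg adjustment, CHERP fell by 3.45 on the log2 scale in whole cells (standard error 0.57, adjusted p = 0.00139), while its cytoplasmic reads were too few to be tested. Of 6 markers listed for cells of mesenchymal origin, 4 had reads on events in each fraction (VIM the most) and 2 had none. Of 5 markers of other cell types only CDH1 had any, with a mean of 15.8 reads in whole cells.

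Inclusion was tested with a quasi-binomial model of the reads, and an event was called at a Benjamini-Hochberg false discovery rate (FDR) under 0.05 within its event type over all genes. The moderation of the spread gave every event the dispersion typical of its read depth, so an event whose own libraries lay far apart was judged like any other of its depth. When the log2 odds were tested by limma instead, 0 events of the hnRNP genes were called in whole cells and 0 in the cytoplasm, and 0 of all events (background 0.0% in both fractions). At an unadjusted limma p under 0.05 there were 13 hnRNP events of 296 in whole cells (4.39%, background 7.93%) and 7 of 131 in the cytoplasm (5.34%, background 7.82%). With the weight of the pooled dispersion cut to 4 prior degrees of freedom, 0 hnRNP events were called in either fraction, against 0.00228% of all events in whole cells and 0.00471% in the cytoplasm. The calls below therefore rest on the pooled dispersion, and the values of single libraries are given with them.

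The sequences below carry the events described most fully. They were read from GRCh37 (hg19) on the strand of each gene. In the first 3, capitals mark the alternative exon or intron and lower case the bases around it; the fourth is an exon of the 5′ UTR without its surroundings.

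HNRNPA2B1 36-nt exon, chr7:26237445-26237506, minus strand: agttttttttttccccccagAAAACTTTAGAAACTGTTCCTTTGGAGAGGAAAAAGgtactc

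HNRNPK 72-nt exon, chr9:86588811-86588908, minus strand: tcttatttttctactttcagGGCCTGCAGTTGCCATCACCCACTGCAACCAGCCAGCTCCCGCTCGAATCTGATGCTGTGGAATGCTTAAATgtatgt

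HNRNPH1 56-nt intron, chr5:179044924-179044999, minus strand: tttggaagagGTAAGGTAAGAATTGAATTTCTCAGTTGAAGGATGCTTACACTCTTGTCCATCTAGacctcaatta

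HNRNPC 26-nt exon, chr14:21731470-21731495, minus strand: TGAGATTTTTTTGATCTTCAGCTACA

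For further exons the 3′ splice sites are shown, with 20 intronic and 3 exonic bases and the AG in capitals. Those of HNRNPD and HNRNPDL are shown because the same bases stand before an exon in both genes, and those of HNRNPK because their exon ends compete.

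HNRNPD 107-nt exon: accttgtttgtacccgccAGcgg

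HNRNPDL 105-nt exon: accttgtttgtacccgccAGcgg

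HNRNPA2B1 136-nt exon: tttccctgccggaattttAGcat

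HNRNPH1 139-nt exon: tatttgtccttgggttgaAGggt

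HNRNPK upstream 3′ site of the last coding exon: ttttttcttttcttttatAGtgt

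HNRNPK downstream 3′ site of the last coding exon: atattttttcttttttatAGtgt

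In whole cells, 25 of the 296 tested hnRNP events were called (8.45%), against 1.14% of all events, and no 2 of the 25 had the same type and coordinates, although several shared a splice site or reads, as given with each gene. Events of hnRNP genes were read deeply, with a median of 1343 mean reads against 93.5 for all events. Among events with at least the hnRNP median, 4.46% of all events and 8.78% of the hnRNP events (13 of 148) were called. The called events lay in 7 of the 10 genes. HNRNPC and HNRNPH1 had 6 each, HNRNPK 5, HNRNPA2B1 3, HNRNPD and HNRNPDL 2 each and HNRNPA1 1, whereas HNRNPM, HNRNPR and HNRNPU had 0. By type there were 15 SE (background 0.917%), 6 MXE (1.61%), 3 A3SS (1.17%) and 1 RI (3.31%). Several of these exons or sites had further whole-cell events with other flanking exons, none of them called. The called event was 1 of 5 for the 57-nt exon of HNRNPD. It was 1 of 4 for the 171-nt exon of HNRNPDL and the 156-nt MXE event of HNRNPH1. For the 120-nt exon of HNRNPA2B1 and the 26-nt exon of HNRNPC it was 1 of 3. Each other exon or site had at most 2 events.

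Inclusion was higher after CHERP siRNA in 18 of the called events (background 0.59%) and lower in 7 (background 0.555%). In 8 of them the levels differed by at least 0.1 (background 0.668%). The libraries of the siRNAs did not overlap in any of the 25. Over all tested hnRNP events they did not overlap in 109 of 296 (36.8%), against 28.6% of all events. In the cytoplasm, at a median depth of 274 reads for hnRNP events against 32.8 for all events, 6 of 131 tested events were called (4.58%, background 0.431%), 5 higher (background 0.214%) and 1 lower (background 0.217%). Among cytoplasmic events with at least that median, 2 of 66 hnRNP events (3.03%) and 1.62% of all events were called. The libraries did not overlap in 46 of the 131 cytoplasmic events (35.1%, background 26.2%), and 1 called event differed by at least 0.1 (background 0.264%).

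With the dispersion set to the larger of the pooled value and the event's own, an alternative chosen after the data were seen, 21 hnRNP events were called in whole cells (7.09%, background 0.818%) and 5 in the cytoplasm (3.82%, background 0.315%). The 4 whole-cell events lost were the 57-nt exon of HNRNPD, the 171-nt exon of HNRNPDL and the MXE events of HNRNPK with exons of 83 and 44 nt. When each whole-cell library was left out in turn, 13 of the 25 were called every time. These were the HNRNPA1 event, the 36-nt and 136-nt exons of HNRNPA2B1, the 26-nt and 272-nt exons and both 3′ site extensions of HNRNPC, the 107-nt exon of HNRNPD, the 105-nt exon of HNRNPDL, the 92-nt and 139-nt exons and the 156-nt MXE event of HNRNPH1, and the 60-nt stretch of HNRNPK. The other 12 lost the call without at least 1 library, and of the 5 cytoplasmic features the 36-nt exon of HNRNPA2B1 alone kept it.

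**Figure D1:**
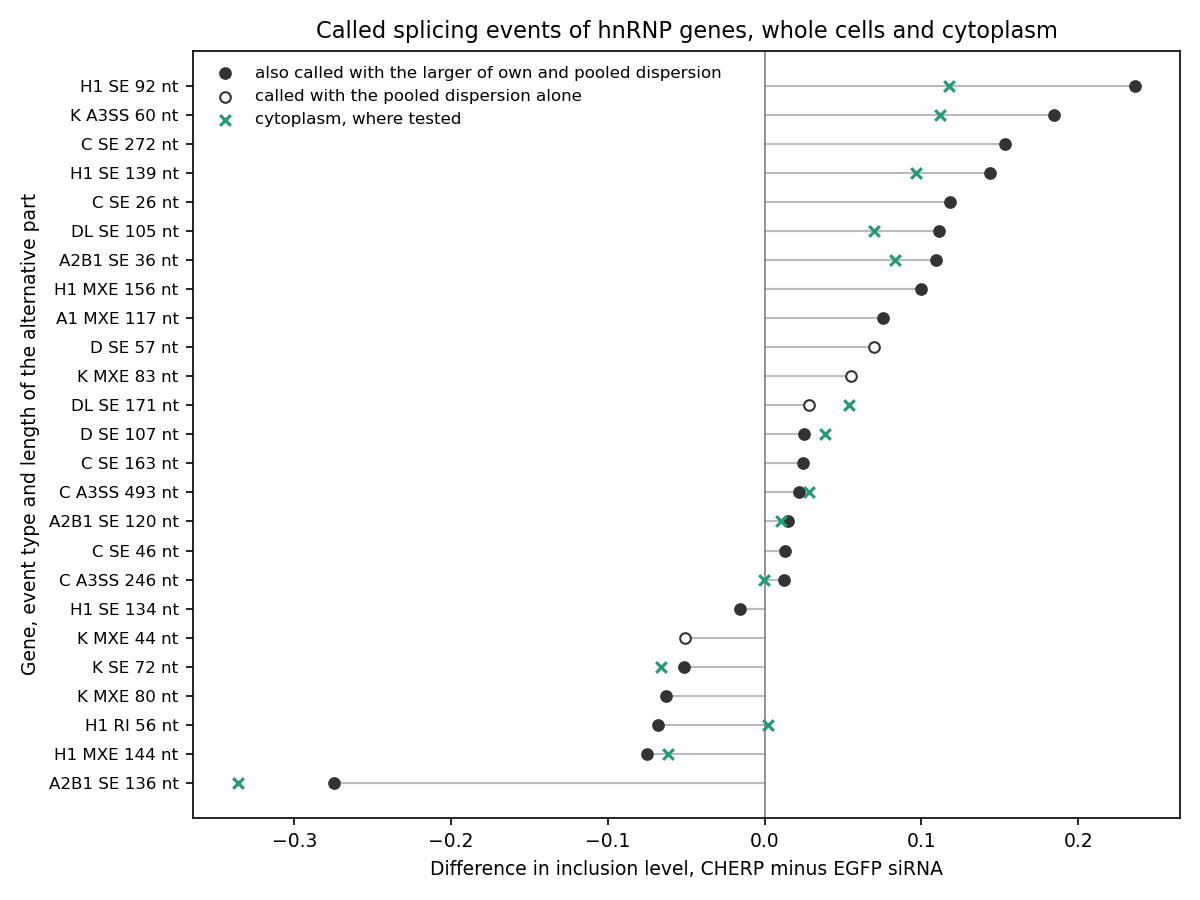
Difference in inclusion level (CHERP minus EGFP siRNA, x axis) of the 25 called hnRNP events in whole cells (circles) and of the same events in the cytoplasm where tested (crosses), by gene, event type and length of the alternative part (y axis). Of the 25, 18 lie right of 0 and 7 left, and open circles mark the 4 that were not called with the larger of own and pooled dispersion.

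HNRNPA1 and HNRNPA2B1 encode closely related proteins with a pair of RNA recognition motifs and a glycine-rich tail, known as splicing repressors. The largest fall of any called hnRNP event was in HNRNPA2B1, at a 136-nt exon in the 3′ UTR of the canonical transcript (chr7:26230613-26230748), whose inclusion form matches 3 annotated transcripts, all of them NMD targets. Its inclusion level in whole cells was 0.633 and 0.696 under EGFP siRNA and 0.371 and 0.409 under CHERP siRNA. In the cytoplasm it was 0.506 and 0.543 against 0.164 and 0.213. Both CHERP libraries lay below both EGFP libraries in each fraction. The skipping form, which matches 0 annotated transcripts, had 84 and 94 reads against 324 and 274 in whole cells. The inclusion reads there were 282 and 418 against 371 and 369, so the lower level went with more skipping reads. In the cytoplasm there were 16 and 15 skipping reads against 55 and 49, and 47 and 51 inclusion reads against 31 and 38. The difference was -0.275 in whole cells (quasi-binomial FDR = 5.67e-11) and -0.336 in the cytoplasm (FDR = 0.00357), with 366 to 695 reads per library in whole cells and only 63 to 87 in the cytoplasm. The 3′ splice site of this exon scored 3.89 bits, at the 7.24th percentile of the introns beside the skipped exons of all genes, whose median was 9.77 bits.

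The 36-nt exon of HNRNPA2B1 (chr7:26237451-26237486) is the coding exon that distinguishes the B1 from the A2 protein. It lengthens the reading frame by whole codons and is absent from the canonical transcript. Its inclusion level was 0.151 and 0.128 under EGFP siRNA and 0.25 and 0.248 under CHERP siRNA in whole cells. The cytoplasmic levels were 0.0964 and 0.0877 against 0.174 and 0.176. The exon was thus included more after CHERP siRNA in both fractions, by 0.109 in whole cells (quasi-binomial FDR = 2.98e-38, from 4322 to 5045 reads per library) and by 0.0833 in the cytoplasm (FDR = 9.08e-06). It had a strong 3′ splice site (15.6 bits, 94.4th percentile) and a weak 5′ splice site (4.65 bits, 8th percentile, median 8.29). The other called HNRNPA2B1 exon, exon 8 of 11 in the canonical transcript (120 nt, chr7:26233195-26233314), was near full inclusion in all libraries. It moved from 0.977 ± 0.00633 (SD, n = 2) to 0.992 ± 0.00155 in whole cells (FDR = 0.00149), and in the cytoplasm the siRNAs overlapped (0.977 and 0.974 against 0.995 and 0.976, FDR = 0.765).

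In HNRNPA1 the only call was an MXE event that sets exon 2 of 11 (117 nt, chr12:54675170-54675286) against the next exon (chr12:54675579-54675725), both coding. The form with exon 2 matches 1 annotated transcript and the other form 0. The 292-nt intron between the 2 exons is spliced out in 16 annotated transcripts. The share of the form with exon 2 was 0.176 and 0.199 under EGFP siRNA and 0.272 and 0.254 under CHERP siRNA in whole cells, so both CHERP libraries were higher. The difference was 0.0753 (quasi-binomial FDR = 3.82e-08, 3.83e-04 with the larger dispersion). In the cytoplasm this event had at most 5 reads in a library and was not tested. The remaining 27 whole-cell events of HNRNPA1 were not called. HNRNPA1 has many processed pseudogenes, and how the authors' mapping divided reads among such copies is not known here, so its values are uncertain in that respect.

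HNRNPC binds uridine tracts in nascent transcripts and is known for keeping U2AF from cryptic 3′ splice sites. Its 6 called events lay in the 5′ UTR, before the start codon, and all had a higher inclusion level after CHERP siRNA. The 26-nt exon printed above is exon 2 of 9 in the canonical transcript. Its level in whole cells was 0.736 and 0.727 under EGFP siRNA and 0.854 and 0.845 under CHERP siRNA, a rise of 0.118 (quasi-binomial FDR = 1.41e-21). The same exon in a longer version of 272 nt (chr14:21731470-21731741) rose from 0.166 and 0.158 to 0.322 and 0.309 (FDR = 4.29e-16), with the CHERP libraries again above the EGFP libraries. These 2 events shared their skipping reads, so they are not separate evidence, and neither is listed for the cytoplasm.

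The other 4 HNRNPC calls shared the skipping reads of another junction, and their inclusion levels stayed low. They were alternative 3′ splice sites that lengthen the exon by 246 nt (0.00742 and 0.00550 against 0.0183 and 0.0189) or 493 nt (0.0199 and 0.0191 against 0.0378 and 0.0453), a 163-nt exon (0.0340 and 0.0285 against 0.0503 and 0.0606) and a 46-nt exon (0.0127 and 0.00885 against 0.0236 and 0.0245). In each, both CHERP libraries were higher. In the cytoplasm the 493-nt extension had levels of 0.0140 and 0.0116 against 0.0351 and 0.0474 and was called (FDR = 4.07e-04), and so was the 163-nt exon joined to another version of the first exon (0.0347 and 0.0274 against 0.0803 and 0.108, FDR = 0.00661). These cytoplasmic calls shared a 3′ splice site and all skipping reads and had nearly the same inclusion reads (19, 18, 59 and 54 for the extension and 20, 18, 59 and 55 for the exon), so they are not separate evidence. In whole cells the 272-nt exon and the 246-nt extension likewise shared a 3′ splice site, as did the 163-nt exon and the 493-nt extension. The 246-nt extension had at most 1 inclusion read in any cytoplasmic library. The 3′ splice site of the 26-nt exon scored 16.5 bits, at the 96.7th percentile, above the sites of the 246-nt (14.9 bits) and 493-nt extensions (12.6 bits).

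HNRNPD (AUF1) and HNRNPDL are close paralogs that bind AU-rich elements and lie 48061 bases apart on chromosome 4. Both had a called exon in the 3′ UTR, beyond the stop codon of the canonical transcript, and both exons were included more after CHERP siRNA in both fractions. For the 107-nt exon of HNRNPD (chr4:83276048-83276154), the inclusion level in whole cells was 0.00350 and 0.00458 under EGFP siRNA and 0.0287 and 0.0294 under CHERP siRNA (quasi-binomial FDR = 5.83e-07), and in the cytoplasm 0.0136 and 0.00706 against 0.0553 and 0.0425 (FDR = 0.0467, 0.0527 with the larger dispersion). It rested on 7 and 13 inclusion reads in the whole-cell EGFP libraries and 58 and 52 in the CHERP libraries. For the 105-nt exon of HNRNPDL (chr4:83346716-83346820), the level in whole cells was 0.0740 and 0.0773 against 0.191 and 0.183 (FDR = 1.59e-09). In the cytoplasm it was 0.0634 and 0.0568 against 0.143 and 0.117 (FDR = 0.0145). All CHERP libraries lay above all EGFP libraries of their fraction in both genes.

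The inclusion form of the HNRNPD exon matches 2 annotated transcripts and that of the HNRNPDL exon 3, all of them NMD targets, whereas the skipping forms match 6 and 5 transcripts, all protein coding. The printed 23 bases of the 3′ splice site are identical in both genes and scored 4.74 bits, at the 10.2th percentile. Aligned end to end, the 2 exons shared 74 of 109 columns (67.9%), the 100 intronic bases before them 80.4% and the 100 after them 71.4%, and the longest identical run, 36 bases, lay before the exon. Each gene had 1 further call near the threshold, at an exon whose other whole-cell events were not called. Exon 2 of 9 of HNRNPD (57 nt, chr4:83292681-83292737) went from 0.906 and 0.913 to 0.982 and 0.976 (FDR = 0.0420). Exon 6 of 8 of HNRNPDL (171 nt, chr4:83347616-83347786), which is coding, went from 0.941 and 0.950 to 0.977 and 0.971 (FDR = 0.0436). Neither was called with the larger dispersion (FDR = 0.0514 and 0.0533).

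HNRNPH1 binds runs of guanine. Its 6 called events lay in the coding region, most of them at exons 3 to 5 of 14. Exon 5 (139 nt, chr5:179046270-179046408), whose length is not a multiple of 3, had an inclusion level of 0.765 and 0.724 under EGFP siRNA and 0.886 and 0.890 under CHERP siRNA in whole cells, a rise of 0.144 (quasi-binomial FDR = 1.04e-07). The skipping form matches 8 annotated transcripts, of which 6 are NMD targets and 0 protein coding. A shorter version of the exon with a later start (92 nt, chr5:179046270-179046361) rose from 0.524 and 0.492 to 0.735 and 0.753 (FDR = 2.23e-06), with the same skipping reads. In the cytoplasm the 139-nt exon stood at 0.777 and 0.833 against 0.880 and 0.923, again without overlap, but was not called (FDR = 0.765). The read numbers there were 189 to 378 per library.

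In an MXE event of HNRNPH1 whose forms match 0 annotated transcripts, the form with exon 3 (156 nt, chr5:179048243-179048398) rather than exon 4 rose from 0.832 and 0.805 to 0.920 and 0.917 in whole cells (FDR = 6.90e-07). Its other form had 118, 160, 92 and 86 reads, nearly the skipping reads of the 139-nt exon (118, 159, 92 and 84), so it is not separate evidence from that exon. In another, which has exon 5 as one of its forms, the form with exon 4 (144 nt, chr5:179047893-179048036) rather than exon 5 fell from 0.662 and 0.692 to 0.611 and 0.593 (FDR = 0.0188). The form with exon 4 matches 8 annotated transcripts, 6 of them NMD targets, as does the skipping form of the 139-nt exon. It is therefore not separate evidence from that exon either. A rare 134-nt exon (chr5:179048844-179048977), whose inclusion form matches 2 annotated transcripts, both NMD targets, fell from 0.0210 and 0.0171 to 0.00246 and 0.00436 (FDR = 0.0152). It rested on 24 and 22 inclusion reads in the EGFP libraries and 5 and 8 in the CHERP libraries.

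HNRNPK binds cytosine-rich RNA through KH domains. Its largest change was at the last coding exon, where splicing to the upstream one of its 3′ sites adds 60 nt (chr9:86584296-86584355) that span the end of the coding region. The share of the upstream site was 0.444 and 0.499 under EGFP siRNA and 0.649 and 0.663 under CHERP siRNA in whole cells, a rise of 0.184 (quasi-binomial FDR = 1.82e-12). In the cytoplasm it was 0.638 and 0.633 against 0.751 and 0.743, which did not overlap but was not called (FDR = 0.481). The sites printed above scored 17.6 bits (98.3th percentile) and 16 bits (95.6th percentile). The 72-nt exon 8 of 17 moved the other way, from 0.903 and 0.908 to 0.848 and 0.861 in whole cells (FDR = 5.46e-05) and from 0.908 and 0.906 to 0.857 and 0.825 in the cytoplasm (FDR = 0.229).

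The 3 MXE calls of HNRNPK set neighbouring exons against each other, and 0 annotated transcripts match their inclusion forms. The share of the form with exon 2 (80 nt, 5′ UTR) fell from 0.307 and 0.312 to 0.246 in both CHERP libraries (FDR = 0.00900), that with exon 6 (44 nt) fell from 0.885 and 0.896 to 0.836 and 0.845 (FDR = 0.0397), and that with exon 15 (83 nt) rose from 0.647 and 0.598 to 0.678 and 0.677 (FDR = 0.0387). The last of them had the widest gap between the EGFP libraries, and its FDR was 0.449 with the larger dispersion. HNRNPK overlaps HNRNPK-AS1 on the other strand, HNRNPA2B1 overlaps CBX3 and NFE2L3, HNRNPD overlaps HNRNPD-DT and HNRNPU overlaps COX20. The libraries were stranded, but the strand setting of the counting is not given, so reads of antisense genes may be included.

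HNRNPM, HNRNPR and HNRNPU had no called event in either fraction. In whole cells the siRNAs did not overlap in 20 of 39 tested events of HNRNPR, 6 of 25 of HNRNPM and 1 of 5 of HNRNPU (background 28.6%). Of these tested events, 10, 1 and 0 had an unadjusted p under 0.05 in the quasi-binomial test across all events. That share was 18.9% over the 10 hnRNP genes, and it was not taken over all genes. With limma the number under 0.05 was 0 for HNRNPR, 2 for HNRNPM and 0 for HNRNPU (background 7.93%). For each gene, the event with the most reads on its rarer form is given. Those of HNRNPM and HNRNPR are MXE events whose forms match 0 annotated transcripts. As in the called MXE events above, their shares compare only these 2 forms and are not the level of an exon over all transcripts. In HNRNPM, a splicing factor that binds guanine- and uridine-rich RNA, the share of exon 2 (170 nt, chr19:8520289-8520458) against a later exon was 0.427 and 0.355 under EGFP siRNA and 0.403 and 0.422 under CHERP siRNA in whole cells (FDR = 0.797). In HNRNPR, an RNA recognition motif protein close to SYNCRIP, exon 6 (177 nt, chr1:23650049-23650225) was set against another exon (chr1:23644976-23645181). The share of the form with exon 6 was 0.389 and 0.371 against 0.392 and 0.344 (FDR = 0.891). In HNRNPU, which binds RNA and the nuclear scaffold, exon 9 (129 nt, chr1:245020030-245020158) was at 0.998 and 0.996 against 0.999 and 0.999 (FDR = 0.788). The siRNAs overlapped in these HNRNPM and HNRNPR events, and HNRNPU had only 5 events in whole cells.

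**Figure D2:**
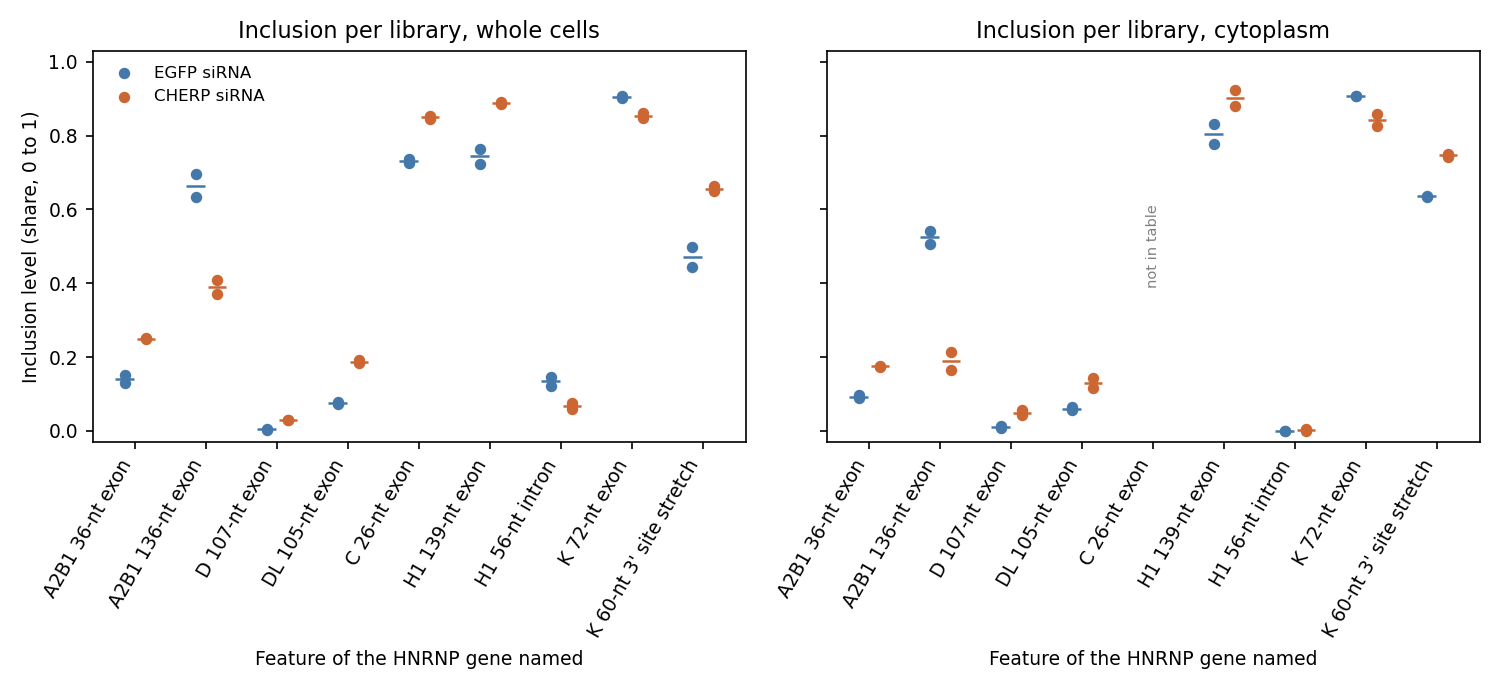
Inclusion level (y axis, share from 0 to 1) of 9 called features of HNRNPA2B1, HNRNPD, HNRNPDL, HNRNPC, HNRNPH1 and HNRNPK in each library (points) with the mean of 2 libraries (lines), in whole cells (left) and the cytoplasm (right). The 136-nt exon of HNRNPA2B1 falls in both fractions, the exons of HNRNPD and HNRNPDL rise from low levels, the HNRNPC exon has no cytoplasmic value, and the 56-nt intron of HNRNPH1 is close to 0 in the cytoplasm.

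Retained introns with 10 or more mean reads made up 12 events of 5 hnRNP genes, 7 of them in HNRNPH1. Their level was lower after CHERP siRNA in 7 of 12 in whole cells. The only one called was the printed 56-nt intron 7 of 13 of HNRNPH1 (chr5:179044934-179044989). Its level in whole cells was 0.122 and 0.147 under EGFP siRNA and 0.0583 and 0.0756 under CHERP siRNA, without overlap (quasi-binomial FDR = 0.00341). In the cytoplasm it had 1 inclusion read in all 4 libraries, beside 60 to 136 skipping reads per library. Its 5′ splice site scored 10.5 bits (86.4th percentile) and its 3′ splice site 7.32 bits (26th percentile).

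Another HNRNPH1 intron, number 3 (206 nt, chr5:179048037-179048242), stood at 0.0973 and 0.0799 against 0.0605 and 0.0579 in whole cells and was not called (FDR = 0.141). Intron 11 (650 nt, chr5:179043220-179043869) was at 0.205 and 0.284 against 0.245 and 0.304 in whole cells. In the cytoplasm that intron had 0 inclusion reads in the EGFP libraries and 1 and 3 in the CHERP libraries. Intron 10 (92 nt) had a whole-cell mean of 0.128 with EGFP siRNA and 0.121 with CHERP siRNA, and means of 0.0354 and 0.0251 in the cytoplasm. Its junction had 71 to 350 skipping reads per library. A 101-nt version had a level over 0.9 in every library of both fractions, but at most 9 skipping reads in any of them. That level is set against a rarely used junction and is not the share of transcripts that keep the intron. An 802-nt stretch that includes intron 11 had whole-cell means of 0.643 and 0.620, with only 31 to 66 skipping reads per library. In the 5′ UTR, a 471-nt intron (chr5:179050166-179050636) had 0.127 and 0.129 against 0.158 and 0.170 (FDR = 0.564).

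The remaining events included a 292-nt intron of HNRNPA1 (means of 0.00754 and 0.00654) and introns of 99 nt and 330 nt of HNRNPC (0.0440 against 0.0541, and 0.442 against 0.529). The others were a 2641-nt stretch at the 3′ end of HNRNPD (0.974 against 0.967, at most 2 skipping reads per library) and a 117-nt intron of HNRNPM (0.0774 against 0.0942). The last was the only one of these listed for the cytoplasm, at means of 0.212 with EGFP siRNA and 0.238 with CHERP siRNA. The tables of the 2 fractions were made separately, so levels are set side by side here without a test. Of the 5 hnRNP introns with 10 or more mean reads in both, 3 had a lower level in the cytoplasm with EGFP siRNA.

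The difference of the CHERP effect between fractions was tested as an interaction on the events at the same coordinates. Of 101 hnRNP events tested, 0 passed (background 0.0328%), 2 had an unadjusted p under 0.05 in the quasi-binomial test and 1 did with limma. The share of all events under that unadjusted threshold was not taken. The smallest FDR of an hnRNP event was 0.921. Of the 25 called events, 14 were tested in both fractions and 12 of these had the same direction in both. The exceptions were the 56-nt intron of HNRNPH1 and the 246-nt extension of HNRNPC, whose cytoplasmic inclusion reads numbered 1 and 2 over all libraries.

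Abundance of a gene was taken as its reads per base of effective length, summed over its SE, A5SS and A3SS events and scaled between libraries. In these bulk samples fewer cells with a transcript and less RNA per cell cannot be told apart. By limma with Benjamini-Hochberg adjustment over 9660 genes in whole cells, 1 hnRNP gene rose (background 19%) and 3 fell (background 17.7%). In the cytoplasm, over 7293 genes, 1 rose (background 25.8%) and 7 fell (background 22.5%). In each fraction 9 of the 10 had a log2 fold change below 0, with a median of -0.18 in whole cells and -0.27 in the cytoplasm, whereas the median of all genes was 0.02 and 0.01. The whole-cell hnRNP median was -0.30 without the first EGFP library and -0.11 without the second, and the sign of HNRNPU changed with the library left out.

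HNRNPDL changed most. Its abundance was 126 and 135 under EGFP siRNA and 67.4 and 69.8 under CHERP siRNA in whole cells, and 32.9 and 34.0 against 15.9 and 16.9 in the cytoplasm. The CHERP libraries thus held about 0.526 and 0.491 of the control level. The log2 fold change was -0.93 (standard error 0.10, limma adjusted p = 1.01e-04) in whole cells and -1.03 (0.06, 2.58e-07) in the cytoplasm. Its 105-nt exon, described above, was skipped in most of its transcripts in all libraries, and what its inclusion has to do with the gene's level was not tested.

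HNRNPH1 was the only one of the 10 to rise. It stood at 61.0 and 62.5 under EGFP siRNA and at 85.8 and 83.9 under CHERP siRNA in whole cells, and at 10.6 and 9.73 against 14.6 and 14.1 in the cytoplasm. This was 1.37 times the control in whole cells (log2 fold change 0.46, standard error 0.09, limma adjusted p = 0.00421) and 1.42 times in the cytoplasm (0.50, 0.07, 1.52e-04). The whole-cell call was lost without either CHERP library (limma adjusted p = 0.0994 and 0.0740).

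HNRNPA1 and HNRNPR fell in both fractions by less. HNRNPA1 was at 313 and 341 against 272 and 262 in whole cells (log2 fold change -0.29, standard error 0.10, limma adjusted p = 0.0443) and at 9.54 and 9.34 against 7.78 and 6.70 in the cytoplasm (-0.39, 0.09, 0.00316). HNRNPR was at 92.4 and 104 against 75.6 and 80.4 in whole cells (-0.33, 0.10, 0.0298) and at 14.1 and 16.4 against 12.4 and 12.6 in the cytoplasm (-0.28, 0.08, 0.0123). Neither whole-cell call held without either CHERP library or with the median over events in place of their sum, and only HNRNPDL was called in every leave-one-out fit of whole cells.

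HNRNPD, HNRNPA2B1, HNRNPM and HNRNPK fell in the cytoplasm and were not called in whole cells. HNRNPD was at 18.4 and 18.2 against 14.2 and 13.6 in the cytoplasm (log2 fold change -0.40, standard error 0.06, limma adjusted p = 3.43e-04). HNRNPA2B1 was at 116 and 129 against 100 and 98.5 (-0.30, 0.06, 0.00107) and HNRNPM at 36.5 and 39.6 against 32.3 and 31.6 (-0.25, 0.06, 0.00490). HNRNPK was at 47.7 and 49.2 against 44.4 and 43.1 (-0.15, 0.05, 0.0405). In whole cells their log2 fold changes were -0.24, -0.18, -0.14 and -0.12, with adjusted p between 0.111 and 0.372. In all 4 the whole-cell libraries of the siRNAs did not overlap, and all 4 were called in whole cells without the first EGFP library, with log2 fold changes of -0.38, -0.24, -0.18 and -0.23 (limma adjusted p between 3.71e-04 and 0.0483). With the median over events the cytoplasmic calls of HNRNPA1, HNRNPD and HNRNPR were lost, that of HNRNPR also without the second EGFP library, and that of HNRNPK without the second EGFP library or either CHERP library.

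HNRNPC and HNRNPU were not called in either fraction. HNRNPC was at 220 and 276 under EGFP siRNA and 218 and 216 under CHERP siRNA in whole cells (log2 fold change -0.18, limma adjusted p = 0.254). Without the first EGFP library its log2 fold change was -0.36 (limma adjusted p = 3.09e-04) and without the second -0.02 (limma adjusted p = 0.838). It was at 50.9 and 59.0 against 50.7 and 48.3 in the cytoplasm (-0.15, 0.0982). HNRNPU was at 37.4 and 44.4 against 39.5 and 40.8 in whole cells and at 8.52 and 9.49 against 8.69 and 8.60 in the cytoplasm, with the siRNAs overlapping in both.

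The CHERP effect on abundance did not pass the interaction test for any of the 10 genes (0 of 7059 genes, background 0.0%, while 348 genes had an unadjusted limma p under 0.05, 0 of them hnRNP genes). The difference of the log2 fold changes, cytoplasm minus whole cells, lay between -0.16 and 0.05, with standard errors between 0.10 and 0.15. A gene called in the cytoplasm and not in whole cells is therefore not shown to differ between them.

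**Figure D3:**
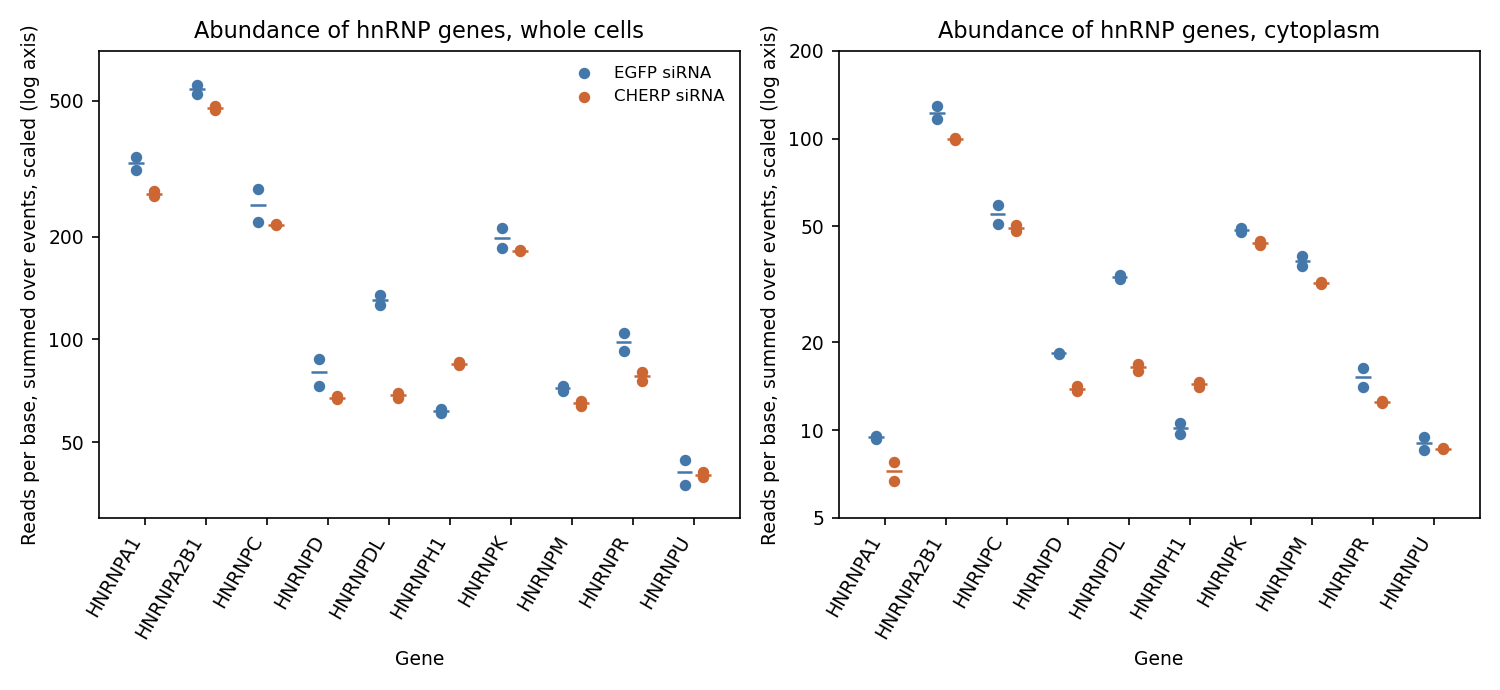
Abundance of the 10 hnRNP genes (y axis, scaled reads per base of effective length summed over events, log axis) in each library (points) with the mean of 2 libraries (lines), in whole cells (left) and the cytoplasm (right). HNRNPDL is lower and HNRNPH1 higher in both CHERP libraries of each fraction, and heights cannot be compared between genes or panels, since they grow with the number of events.

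Levels of different genes can be set side by side only per event. They still depend on which events are listed for a gene, so the order below is not one of abundance. Divided by its number of events, the whole-cell level with EGFP siRNA was highest for HNRNPA2B1, at 20 reads per base and event, followed by HNRNPA1 at 15.6. Then came HNRNPC (9.54), HNRNPK (9.02), HNRNPU (8.18) and HNRNPDL (7.25), of which each overlapped the next. HNRNPD (5.02), HNRNPR (4.27), HNRNPM (3.99) and HNRNPH1 (1.63) followed, and among them HNRNPR and HNRNPM overlapped. With CHERP siRNA HNRNPDL stood below HNRNPD, at 3.81 against 4.22, and their library ranges did not overlap. In the cytoplasm with CHERP siRNA it overlapped HNRNPH1, the lowest (0.965 against 0.957). In the cytoplasm HNRNPA2B1 was again first (10.2) and HNRNPH1 last (0.676) with EGFP siRNA, and HNRNPA1, which had 6 events there against 21 in whole cells, was ninth (1.57). All HNRNPA1 events had a median of 88.4 reads there and 3570 in whole cells. The authors' cytoplasmic means, given below, are higher for HNRNPA1 than for HNRNPDL and HNRNPH1 in both conditions.

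The authors' own expression table for the cytoplasm lists 6757 genes, 3 of them hnRNP genes. The paper's numbers of increased and decreased cytoplasmic transcripts together come close to this, so it may hold only genes the authors called. HNRNPA2B1, HNRNPD, HNRNPK, HNRNPM and HNRNPR, called here in the cytoplasm, are not among them. It gives the authors' means in a first and a second condition, and its header does not say which siRNA each one is. For HNRNPDL the authors' mean was 3447 in the first condition and 5972 in the second, for HNRNPH1 3895 and 2495, and for HNRNPA1 21704 and 24732. For CHERP it was 209 and 1685, while its cytoplasmic event reads were 31 and 21 under EGFP siRNA and 3 and 4 under CHERP siRNA. By that order the first condition would be CHERP siRNA, although the header does not say so.

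Of 20 other genes of the family, 16 had enough reads to be tested in whole cells and 15 in the cytoplasm. In whole cells 4 rose and 1 fell (of all genes 19% and 17.7%), and in the cytoplasm 5 rose and 7 fell (of all genes 25.8% and 22.5%), with median log2 fold changes of -0.18 and -0.24. HNRNPUL1, HNRNPAB and RBMX had a larger log2 fold change than HNRNPH1 in both fractions, and HNRNPH3 and HNRNPLL in the cytoplasm. HNRNPUL1, a relative of HNRNPU, was at 7.26 and 5.56 under EGFP siRNA and 17.6 and 18.7 under CHERP siRNA in whole cells (log2 fold change 1.51, limma adjusted p = 5.37e-05) and at 3.46 and 2.91 against 11.2 and 10.5 in the cytoplasm (1.77, 1.38e-07). HNRNPAB, a relative of HNRNPD, rose by 1.24 in whole cells and 1.39 in the cytoplasm (limma adjusted p = 4.87e-05 and 3.47e-06). RBMX rose by 0.95 and 1.02 (1.27e-04 and 4.84e-06). HNRNPH3, a paralog of HNRNPH1, rose by 0.43 and 0.60 (0.00598 and 2.03e-05).

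HNRNPLL rose in the cytoplasm (log2 fold change 0.64, limma adjusted p = 0.00500) and stood at 0.33 in whole cells (limma adjusted p = 0.0550). PCBP2, a KH domain relative of HNRNPK, fell in both fractions (-0.37 and -0.36). In the cytoplasm HNRNPF (-0.46), PTBP1 (-0.33), PTBP2 (-0.76), SYNCRIP (-0.30), RALY (-0.24) and CIRBP (-0.38) fell as well, with adjusted p between 0.00119 and 0.0336. They were not called in whole cells.

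**Figure D4:**
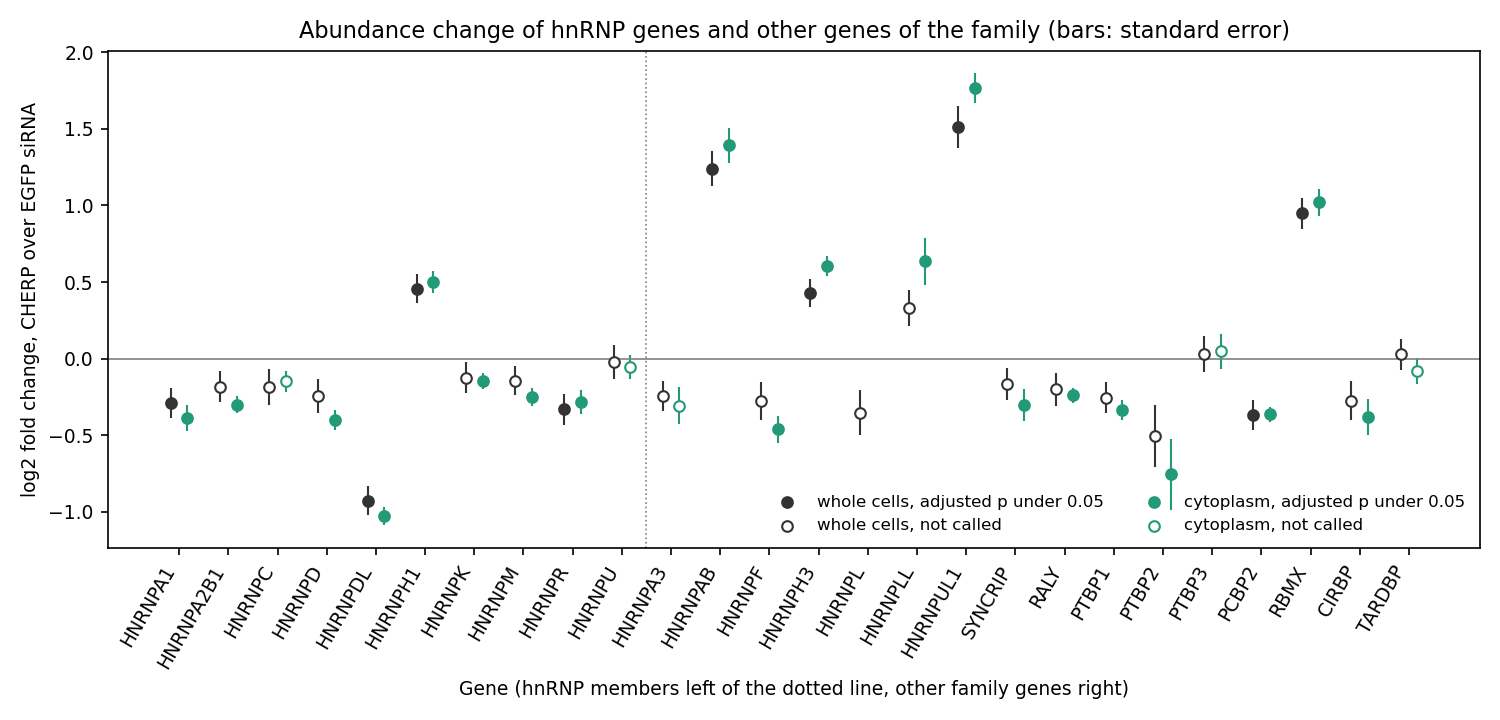
Log2 fold change of abundance (CHERP over EGFP siRNA, y axis) with its standard error for the 10 hnRNP genes (left of the dotted line) and the other tested genes of the family (right), in whole cells and the cytoplasm, with filled points at a limma adjusted p under 0.05. HNRNPDL falls and HNRNPH1 rises in both fractions, and HNRNPUL1 has the highest value, 1.51 in whole cells and 1.77 in the cytoplasm.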

How the data were processed

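Whole-cell and cytoplasmic RNA of U2OS cells was sequenced with a stranded poly(A) kit. The authors mapped to hg19; the submitters' processing notes name STAR 2.5.2b and RSEM 1.2.25. The authors ran rMATS and deposited 10 tables of reads per library on each form of an event, without normalization, and a cytoplasmic expression table whose 2 mean columns, as deposited by the authors, hold a score per gene (mean normalized counts per condition). The authors' p-values, FDR, fold changes and posterior probabilities and 20 columns of inclusion levels per library were not used. A cell joins the reads of 2 libraries without replicate numbers.

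The quasi-binomial dispersion was moderated by squeezeVar (limma 3.58.1, R 4.3.3), trended on mean reads and floored at 1. The prior degrees of freedom were infinite in all 10 tables. After median-ratio scaling, abundance was put on the log2(value + 0.01) scale and tested by limma where a gene had 20 or more mean reads, so fold changes of low genes are understated. Mutually exclusive forms were assigned by strand, which the deposited lengths bore out for 17406 of 17406 events. Splice site scores are log odds, in bits, from the base frequencies at 103934 introns. Gene parts and transcript classes came from GENCODE 44 lifted to GRCh37. Python 3.11.15 with pandas 2.3.3 and pysam 0.24.0 was used. The tests were run on simulated data first.

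The genes and lists were chosen with earlier results of these data known. Named were all 10 genes, each called event (or, for a gene without one, the event with most reads of its rarer form), all RI events with at least 10 reads, and other family genes that passed, of which 1 listed gene is not reported here. Alternatives were other dispersion rules, limma on log2 odds with 0.5 added, read minimums, adjustment over all types, pseudocounts, scalings, other joins of events, and leaving out each library. 2 libraries per group limit the precision.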

Additional observations from a re-analysis of the deposited data

How the results depend on the processing

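The counts of called hnRNP events depended on the test more than on filters. The 25 whole-cell calls became 0 with limma on the log2 odds, 0 with 4 prior degrees of freedom and 8 with a difference of at least 0.1 required, and the 6 cytoplasmic calls became 0, 0 and 1. When each library was left out in turn, between 14 and 24 whole-cell events and between 1 and 4 cytoplasmic events were called, the fewest whole-cell ones without the first or second CHERP library (14 and 15). In the cytoplasm 2 were called without the first EGFP library, 1 without the second, 2 without the first CHERP library and 4 without the second. Of the 25 whole-cell events, 13 were called in all 4 of these fits. In the cytoplasm 1 of 5 was, the 36-nt exon of HNRNPA2B1. The direction of the 25 could not change under these alternatives and is no check on them. The other tests kept the same inclusion difference, and with no overlap between the siRNAs, leaving out a library could not reverse it. With the dispersion taken from events whose rarer form had 10 or more reads, 21 whole-cell and 9 cytoplasmic events were called. Read minimums of 10 or 50 gave 26 and 6, and adjustment over all types 24 and 6. For these settings and for the fits without a library, the share of all events called was not taken. Their counts therefore carry no comparison with all events.

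For abundance, 4 genes were called in whole cells and 8 in the cytoplasm. With the median over events in place of the sum, 2 and 5 were. On that measure 15.3% of all genes rose and 14.2% fell in whole cells, and 19.9% and 17.6% in the cytoplasm. Leaving out the first or second EGFP library gave an hnRNP median log2 fold change of -0.30 or -0.11 in whole cells. Without the first or second CHERP library it was -0.17 or -0.18. In the cytoplasm the hnRNP medians were -0.34, -0.18, -0.26 and -0.24 in the same order. The median of all genes lay between 0.01 and 0.03 in these fits. The log2 fold change of HNRNPU, which was never called, changed sign with the median over events in whole cells (0.11). Without each library in turn it lay between -0.15 and 0.11 in whole cells and between -0.14 and 0.0207 in the cytoplasm. It was above 0 without the second EGFP library in either fraction and without the first CHERP library in whole cells. Scaling by total moved the median of all genes from 0.01 to -0.105 in the cytoplasm and from 0.02 to -0.0353 in whole cells. On that scaling the hnRNP median was -0.39 and -0.24, and 1 gene rose and 8 fell in the cytoplasm (of all genes 19.3% and 28.8%), and 1 rose and 5 fell in whole cells (17% and 20.5%). No hnRNP gene or event passed an interaction test under any alternative run. With 1 library left in a group, that library was taken to vary like the others.

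No paired analysis was possible because the cells of the tables carry no replicate number. Cytoplasmic hnRNP events had a median of 274 reads against 1343 in whole cells, and the part of depth in what was not called there was not tested.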
